A study of Mus musculus with 14 samples.

Results

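Blood neutrophils of Cxcr4-deficient mice taken at ZT5 were set against blood neutrophils of wild-type mice taken at ZT13, across all genes of the deposited table; ZT counts the hours from the onset of light. The comparison held 6 of the 14 libraries of the series, chosen by their labels alone. The 3 mutant libraries came from mice labelled CXCR4f/fxMrp8Cre, in which a floxed Cxcr4 gene meets a Cre recombinase under the Mrp8 (S100a8) promoter, and were drawn at ZT5 (clock time 12 h). The 3 wild-type (WT) libraries were drawn at ZT13 (clock time 20 h), and their labels name no Cre. All donors were male C57BL/6 mice aged 7 to 10 weeks, and all blood was cleared of red cells by lysis and sorted for Ly6G with the antibody 1A8. Genotype, Cre and clock time all differed between the groups, so their contributions cannot be told apart here. The Mrp8 promoter is active in neutrophils and in part of the other myeloid cells, and the labels leave it unsaid if each library was a different mouse. The p-values therefore measure the spread between libraries of a group, which may be technical and was estimated over all 14 libraries.

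CXCR4 is the receptor for the chemokine CXCL12, which bone marrow stroma makes. It holds maturing neutrophils in the marrow, while CXCR2, the receptor for CXCL1 and CXCL2, favours their release into blood. Circulating neutrophils change over the day, in a process called ageing, and CXCR4 has been studied for its part in clearing aged cells from blood. Neutrophil granules are filled in sequence during maturation in the marrow: azurophil granules in promyelocytes, specific granules in myelocytes and metamyelocytes, gelatinase granules in band cells. Messenger RNAs of early granule proteins decline as the cells mature. Immediate early genes, such as Fos and Egr1, are transcribed shortly after a stimulus without need of new protein and have short-lived transcripts.

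Values below are the deposited normalized read values, and within a group they stand in the order of the replicate numbers, 2, 4 and 5 for the mutants, 5, 8 and 9 for WT ZT5 where it is shown, and 2, 8 and 9 for WT ZT13. The values are not divided by gene length, so levels of different genes cannot be ranked. The libraries held 4613982 to 5594088 recovered reads in the mutants and 4082276 to 5454088 in WT ZT13. Spearman correlations across genes between libraries were 0.884 to 0.891 within the mutants, 0.853 to 0.870 within WT ZT13 and 0.824 to 0.862 between the groups. Genes are not independent replicates, so these describe likeness only. The 6 defining neutrophil markers S100a8, S100a9, Ly6g, Csf3r, Cxcr2 and Retnlg were detected in all 6 libraries, with S100a9 at 15891, 21072 and 19075 in the mutants and 5510, 5167 and 5972 in WT ZT13. Ly6g was at 182, 256 and 202 in the mutants and 33.9, 10.4 and 39.7 in WT ZT13, where replicate 8 was the lowest.

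The targeted gene was examined first. Cxcr4 (ENSMUSG00000045382, chr1:128588199-128592293, GRCm38) had values of 26.2, 13.2 and 17.9 in the mutants, against 653, 501 and 393 in WT ZT13. Every mutant library lay far below every WT ZT13 library. The log2 fold change was -4.71 (SE 0.26, limma, Benjamini-Hochberg adjusted p = 4.89e-12), and the mutant mean was 3.70% of the WT mean. Reads were counted over the whole gene, so those left may come from outside the deleted segment, whose limits the labels do not give. Cxcr2, the opposing receptor, had values of 1844, 1642 and 2133 in the mutants and 2324, 2377 and 2072 in WT ZT13. Its groups overlapped, and the change of -0.28 (SE 0.18, limma adjusted p = 0.475) did not pass the threshold. Arntl (Bmal1), which drives the clock, was at 0, 0 and 4.84 in the mutants and 0, 5.07 and 0.731 in WT ZT13, too low to compare at this depth.

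Most specific granule transcripts were higher in the mutants, and most immediate early and erythroid transcripts were lower, while genes that define neutrophils went both ways. Of 11255 genes tested, 589 (5.23%) passed an adjusted p of 0.05 by limma on log2(value + 1), with 296 (2.63%) higher and 293 (2.6%) lower. The groups did not overlap in 583 of the 589, against 22.5% of all genes tested. Overlap and calls rest on the same values, so neither supports the other. More than 4-fold changes were seen in 99 called genes in each direction, and the median log2 fold change of all genes tested was -0.04. The median was 1.47 over the called higher genes and -1.44 over the called lower genes. Every call rests on RNA from all sorted cells together, in which fewer cells of a type and less RNA per cell cannot be told apart. Red cell transcripts moved with the contrast too: the summed value of 20 erythroid markers was 4953 to 15107 in the mutants and 30743 to 115274 in WT ZT13, and their part in the other calls was not tested. Leaving out WT ZT13 replicate 9, mutant replicate 4 or mutant replicate 5 reduced the count to 384, 373 and 369 genes, and 268 genes kept their call whichever of the 6 libraries was left out.

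**Figure D1:**
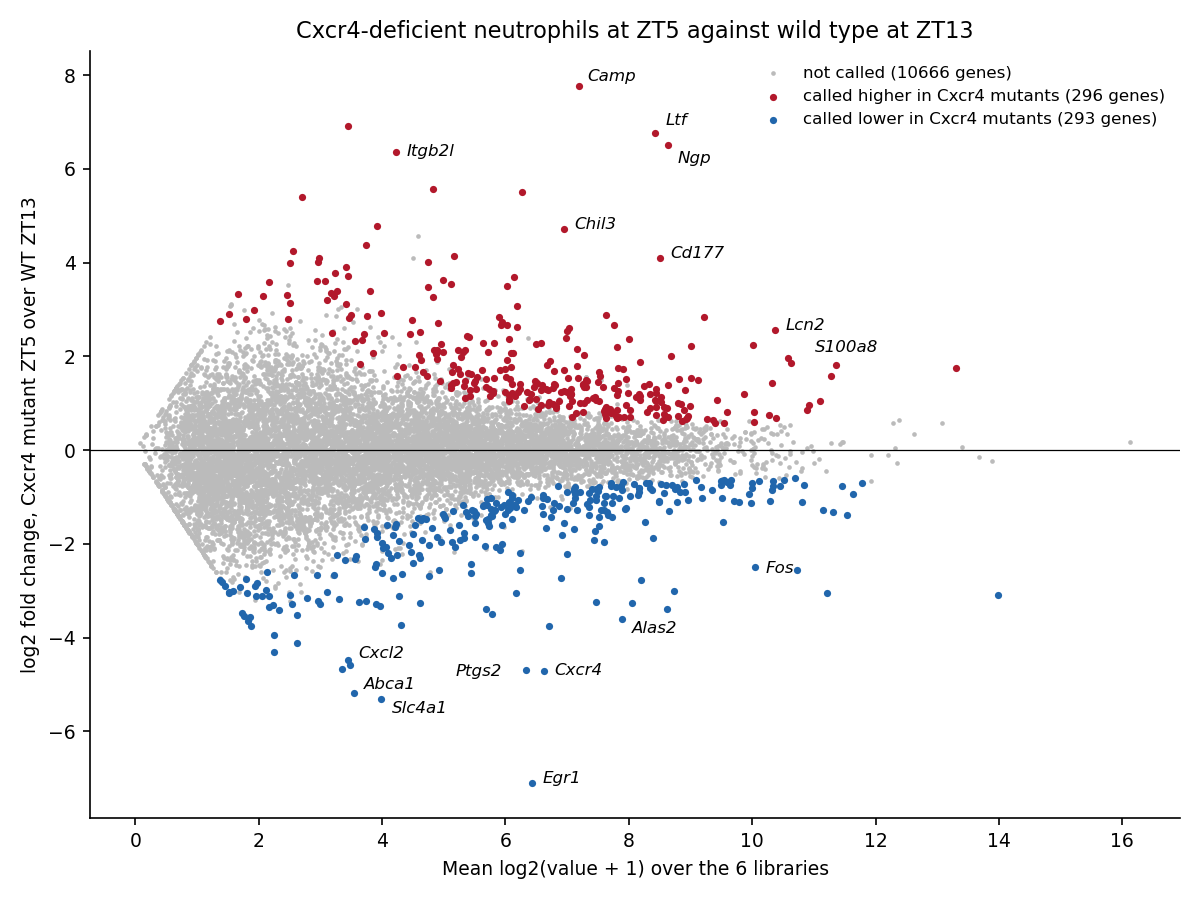
Mean log2(value + 1) over the 6 libraries (x axis) against the log2 fold change of Cxcr4 mutants at ZT5 over WT at ZT13 (y axis), for the 11255 genes tested. Red and blue points are the 296 genes called higher and 293 called lower by limma, and grey points were not called; Camp (7.78) and Egr1 (-7.10) lie at the extremes.

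The 41 gene lists examined, with 860 memberships tested, ranged from lists in which most members were called to lists at or under the share of all genes. Members and lists were chosen with earlier results of these data known, so their shares are descriptions and not tests. Specific granule proteins had the highest share of higher calls, 15 of 19 members (78.9%). Erythroid markers, with 17 of 20 (85%), and immediate early genes, with 14 of 21 (66.7%), had the highest shares of lower calls. At the other end, 1 of 70 cytosolic ribosomal proteins and 3 of 70 nuclear-encoded respiratory chain subunits were called, and the share among the second was 4.29%, below the 5.23% of all genes. Without WT ZT13 replicate 9, mutant replicate 2 or mutant replicate 4, 0 of these subunits were called, and 1 without WT ZT13 replicate 2 or mutant replicate 5. Even so, 55 of their 70 estimates were positive and 15 negative, with a median of 0.33, against -0.04 over all genes. The ribosomal estimates were evenly split, 35 positive and 35 negative. The ribosomal count was 0 without WT ZT13 replicate 8 or 9 or mutant replicate 5, and 2 without WT ZT13 replicate 2. Of 14 cytosolic heat shock proteins, 0 were called by the main limma fit or edgeR and 2 by DESeq2, and 4 had an unadjusted p under 0.05. A limma fit of the 6 libraries alone called 1. Their estimates were negative in 12 and positive in 2, with a median of -0.68.

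**Figure D2:**
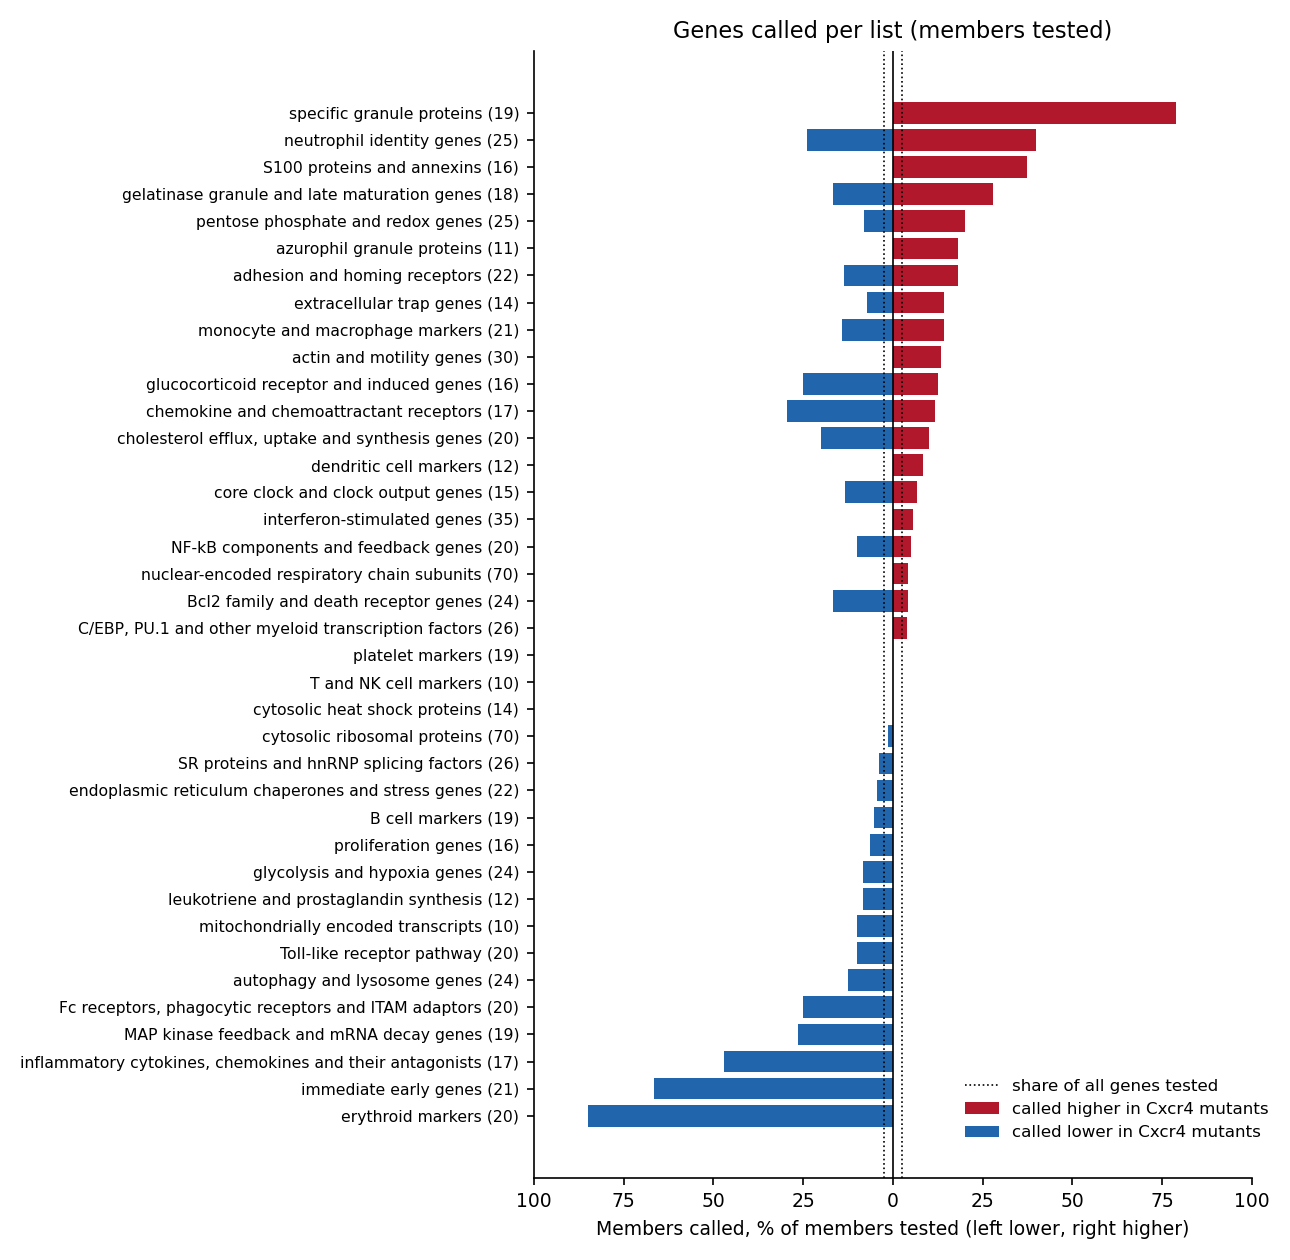
Share of the tested members of each list called higher (red, right) or lower (blue, left) in Cxcr4 mutants at ZT5 than in WT at ZT13, in percent, for lists with at least 10 tested members (number in brackets). Dotted lines mark the shares of all genes tested, 2.63% higher and 2.6% lower. Specific granule proteins reach 78.9% on the right and erythroid markers 85% on the left. The lists were chosen with earlier results of these data known.

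Specific granule proteins had the highest median change of the 41 lists. Of 19 members tested, 15 were higher, 0 were lower, and the median log2 fold change was 1.85, against -0.04 over all genes. Camp, the precursor of the antimicrobial peptide cathelicidin, had values of 1834, 2398 and 2314 in the mutants and 28.6, 2.11 and 9.50 in WT ZT13. Ltf, the iron-binding protein lactoferrin, was at 2958, 4201 and 3718 in the mutants, against 77.9, 14.2 and 29.0 in WT ZT13. Ngp, neutrophilic granule protein, was at 2617, 5557 and 3733 in the mutants and 82.8, 32.3 and 24.4 in WT ZT13. For all 3 genes each mutant library was above 1800, while no WT ZT13 library reached 83. Their log2 fold changes were 7.78 for Camp (SE 0.54, limma adjusted p = 4.1e-10), 6.77 for Ltf (SE 0.47, adjusted p = 4.1e-10) and 6.52 for Ngp (SE 0.49, adjusted p = 1.03e-09). WT neutrophils at ZT5 were as low as those at ZT13, with Camp at 20.0, 7.60 and 24.5 and Ltf at 33.6, 18.4 and 41.4.

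Other specific granule transcripts rose less steeply. Chil3, a chitinase-like lectin, had values of 469, 703 and 778 in the mutants and 11.5, 31.7 and 33.4 in WT ZT13 (4.72, SE 0.71, limma adjusted p = 6.9e-05). Cd177, a surface protein carried by specific granules, was at 1224, 1731 and 1638 in the mutants and 112, 65.1 and 89.4 in WT ZT13 (4.11, SE 0.26, adjusted p = 6.04e-11). Lcn2, the siderophore-binding lipocalin, was at 2545, 3896 and 3370 in the mutants, against 442, 545 and 660 in WT ZT13 (2.57, SE 0.25, adjusted p = 2.02e-07). In each of these the lowest mutant library lay well above the highest WT library. The collagenase Mmp8 changed by 1.96, Anxa1, the glucocorticoid-induced annexin, by 1.85, the adhesion proteins Ceacam10 and Ceacam1 by 1.56 and 1.51, and the peptidoglycan-binding protein Pglyrp1 by 1.38. Olfm4, a glycoprotein of a subset of neutrophils, changed by 2.10, a call lost on leaving out any library except WT ZT13 replicate 8 (adjusted p up to 0.141). That of Ceacam10 was lost without WT ZT13 replicate 2 or 8 or mutant replicate 4 or 5 (adjusted p up to 0.105). Hp, Lrg1, Orm1 and Tcn2, whose products are also made by the liver or other tissues, had changes of -0.37, -0.02, -0.02 and 0.29 that did not pass.

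**Figure D3:**
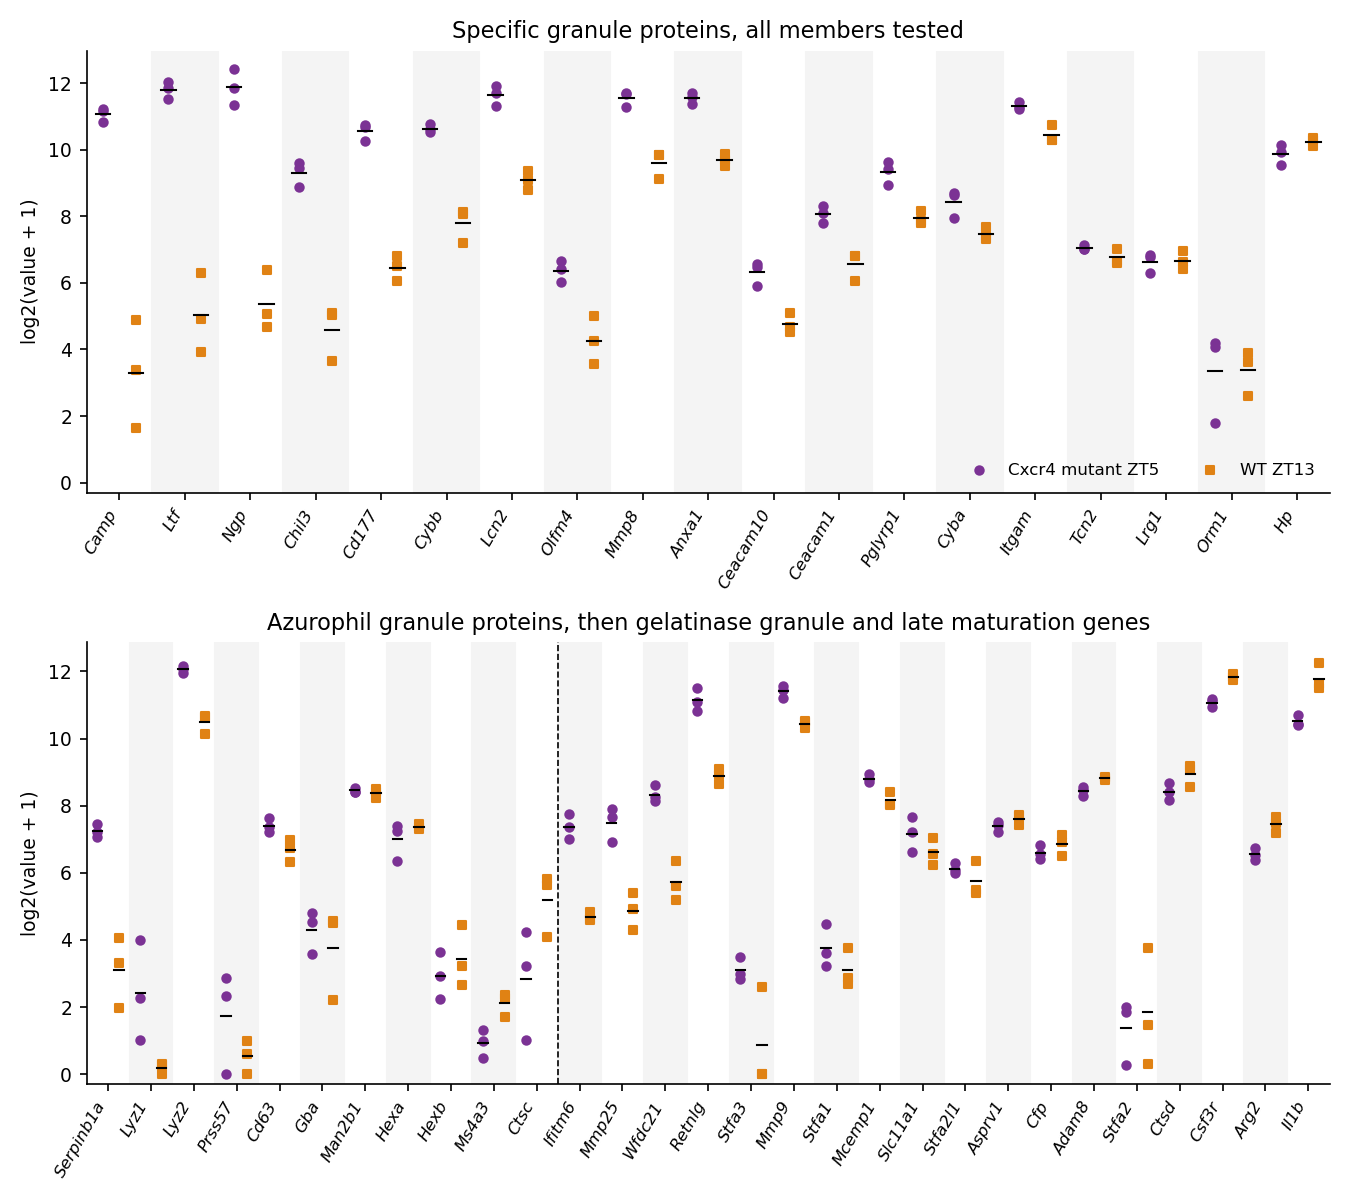
Values on the log2(value + 1) scale (y axis) of every tested member of the specific granule list (top) and the azurophil and gelatinase granule lists (bottom, split by the dashed line), with Cxcr4 mutants at ZT5 as purple circles left of WT ZT13 as orange squares. Each point is 1 library and each bar a group mean; the groups of Camp, Ltf and Ngp are separated by more than 4 units.

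Camp, Ngp and Ltf lie close together on chromosome 9 (chr9:109847379-111042767, GRCm38). The interval held 18 tested genes. Camp, Ngp and Ltf were the only ones of the 18 called, all higher, and Map4, a microtubule-associated protein and the nearest to a call of the rest, had means of 208 in the mutants and 129 in WT ZT13 (0.70, limma adjusted p = 0.0689). The promoters of these genes are shown with that of Lcn2, since C/EBP factors are known to act on granule protein genes. Each is the 250 bases before the RefSeq start (GRCm38.p6), 5′ to 3′ on the gene's strand, with matches to the C/EBP-like motif TTGCNNAA on either strand in capitals. They are chr9:109849457-109849706 (minus strand) for Camp, chr9:110419558-110419807 (plus) for Ngp, chr9:111019042-111019291 (plus) for Ltf and chr2:32387740-32387989 (minus) for Lcn2.
Camp: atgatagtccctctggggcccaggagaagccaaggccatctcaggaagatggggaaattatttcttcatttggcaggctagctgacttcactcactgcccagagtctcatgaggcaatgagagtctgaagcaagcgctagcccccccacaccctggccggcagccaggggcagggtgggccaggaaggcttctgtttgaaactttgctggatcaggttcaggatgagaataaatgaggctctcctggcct
Ngp: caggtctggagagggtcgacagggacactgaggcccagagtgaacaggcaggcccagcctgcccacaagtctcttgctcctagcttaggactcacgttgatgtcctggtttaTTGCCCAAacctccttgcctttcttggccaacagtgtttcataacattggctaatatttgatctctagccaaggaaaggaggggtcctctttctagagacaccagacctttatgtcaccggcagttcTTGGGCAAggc
Ltf: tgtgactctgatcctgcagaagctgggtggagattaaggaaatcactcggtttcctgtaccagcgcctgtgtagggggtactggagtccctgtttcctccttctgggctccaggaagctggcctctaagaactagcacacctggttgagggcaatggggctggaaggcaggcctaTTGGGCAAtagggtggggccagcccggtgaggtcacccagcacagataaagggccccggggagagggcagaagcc
Lcn2: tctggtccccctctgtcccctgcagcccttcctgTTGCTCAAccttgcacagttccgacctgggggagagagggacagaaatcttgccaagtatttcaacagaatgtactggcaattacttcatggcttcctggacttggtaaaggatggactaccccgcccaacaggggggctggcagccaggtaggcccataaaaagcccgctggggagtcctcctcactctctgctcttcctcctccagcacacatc
Ngp held 2 matches, beginning 138 and 11 bases before the start, Ltf held 1 at 75 bases and Lcn2 1 at 216 bases, and these letters were not in the Camp window. Among the named called genes with a promoter in the table (83 of 106), the motif occurred in 9 of 40 higher genes (22.5%) and 3 of 43 lower genes (6.98%). It occurred in 10.8% of all 32851 RefSeq promoters of the same length, 250 bases before to 50 after the start. Other motifs were searched too. TGANTCA (AP-1) occurred in 10% of the higher genes, 2.33% of the lower genes and 7.81% of all promoters. For ACANNNTGT (glucocorticoid receptor) the shares were 12.5%, 2.33% and 6.85%. TTATGTAA (D-box) occurred in 1 higher and 0 lower genes, and GGGANTTCC (kappa-B) in 0 of either. CACGTG is given below with Per1. A match describes the letters only, not a bound site.

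The azurophil list and the gelatinase and late maturation list changed less uniformly. Both also hold genes whose products are not granule contents, such as inhibitors, receptors or cytokines, so these counts do not describe granule stages alone. Among 11 members of the azurophil list tested, 2 were higher and 0 lower, and 7 estimates were positive and 4 negative. Serpinb1a, an inhibitor of neutrophil serine proteases, was at 132, 173 and 149 in the mutants, against 15.5, 8.88 and 2.92 in WT ZT13 (4.13, SE 0.58, limma adjusted p = 3.27e-05). Lyz2, the myeloid lysozyme, was at 3957, 4610 and 4301 in the mutants and 1116, 1634 and 1606 in WT ZT13 (1.58, SE 0.18, adjusted p = 1.24e-06). Neither group overlapped the other in these genes. Of the gelatinase granule and late maturation list, 5 of 18 were higher and 3 lower. Those higher were Ifitm6 (2.68), Mmp25 (2.62), Wfdc21 (2.61), Retnlg (2.25) and Mmp9 (0.97), the gelatinase that names the granule. Those lower were Il1b (-1.27), the arginase Arg2 (-0.89) and Csf3r (-0.76), the receptor for granulocyte colony-stimulating factor. The call of Arg2 was lost whichever library was left out (adjusted p up to 0.172). That of Csf3r was lost without WT ZT13 replicate 2 or 8 or mutant replicate 4 or 5 (adjusted p of at least 0.0543 in each).

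Genes that define neutrophils moved in both directions. Of 25 tested, 10 were higher and 6 lower, with a median log2 fold change of 0.19. Ly6g, which encodes the antigen used in the sort, was at 182, 256 and 202 in the mutants and 33.9, 10.4 and 39.7 in WT ZT13 (3.07, SE 0.41, limma adjusted p = 1.54e-05). No mutant library overlapped a WT library. Ly6 genes have close copies that can share reads, so single values of them are uncertain. S100a8, a calcium-binding alarmin and the gene whose promoter drives the Cre, was at 3533, 5393 and 6234 in the mutants, against 1068, 1529 and 1646 in WT ZT13 (1.82, SE 0.23, adjusted p = 5.31e-06). Padi4, the enzyme that citrullinates histones, rose by 1.66 and Fpr2, a formyl peptide receptor, by 1.41. Wfdc17 fell by 3.25 on the log2 scale, the decoy receptor Il1r2 by 1.91 and the activating receptor Trem1 by 1.08.

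NADPH oxidase and S100 or annexin genes had higher calls and 0 lower ones. Of 8 oxidase subunits tested, 3 were higher. Cybb, the catalytic subunit, was at 1474, 1746 and 1583 in the mutants and 147, 281 and 269 in WT ZT13 (2.83, SE 0.25, limma adjusted p = 2.23e-08). Its cytosolic partner Ncf1 averaged 1430.5 in the mutants and 624 in WT ZT13, and its membrane partner Cyba changed by 0.96. Of 16 S100 proteins and annexins, 6 were higher, among them Anxa3 (3.27), Anxa1 (1.85) and S100a8 (1.82). Anxa3 was at 81.5, 73.8 and 108 in the mutants, against 10.8, 7.19 and 6.82 in WT ZT13, without overlap.

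Several of the largest increases were outside these lists. Itgb2l, an integrin beta chain related to Itgb2, was at 134, 202 and 175 in the mutants and 6.11, 0 and 0.244 in WT ZT13 (6.35, SE 0.93, limma adjusted p = 4.8e-05). Adpgk, an ADP-dependent glucokinase, was at 444, 615 and 507 in the mutants and 24.4, 6.55 and 6.82 in WT ZT13 (5.50, SE 0.54, adjusted p = 1.87e-07). Abca13, a large lipid transporter, was at 195, 316 and 260 in the mutants, against 33.4, 18.6 and 9.99 in WT ZT13 (3.70, SE 0.52, adjusted p = 2.87e-05). All 3 genes were low in every WT library. Acvrl1, a receptor of the TGF-beta family, changed by 4.78, the septin Sept5 by 4.02 and the transcription factor Klf5 by 3.71. Ffar2, a receptor for short-chain fatty acids, rose by 3.78 and Ankrd46 by 3.62. Ffar2 lost its call on leaving out any library except WT ZT13 replicate 2 (adjusted p up to 0.149), and Ankrd46 without WT ZT13 replicate 8 or 9 or mutant replicate 4 (adjusted p up to 0.0700). By edgeR the calls of Klf5 (adjusted p = 0.134), Ffar2 (adjusted p = 0.417) and Ankrd46 (adjusted p = 0.139) were lost.

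Most immediate early genes were lower in the mutants. Of 21 tested, 14 were called lower and 0 higher, all 21 estimates were negative, and the median was -1.28. Egr1, a zinc finger transcription factor, was at 6.79, 1.22 and 22.3 in the mutants and 1353, 961 and 796 in WT ZT13 (-7.10, SE 0.52, limma adjusted p = 7.4e-10). Fos, a subunit of AP-1, was at 922, 220 and 431 in the mutants and 3112, 2540 and 1994 in WT ZT13 (-2.49, SE 0.31, adjusted p = 5.79e-06). Fosb, its close relative, was at 64.7, 14.9 and 21.6 in the mutants, against 686, 278 and 296 in WT ZT13 (-3.75, SE 0.37, adjusted p = 1.96e-07). No library of either group crossed into the other for these genes. Atf3 changed by -2.69, Jun by -2.17, Csrnp1 by -2.13, Junb by -1.42 and Btg2 by -1.08. Egr2 changed by -3.22, a call lost without WT ZT13 replicate 2 (adjusted p = 0.0878) or mutant replicate 5 (adjusted p = 0.0920). Nr4a1 changed by -1.28, lost without WT ZT13 replicate 2 or 9 or mutant replicate 4 or 5 (adjusted p up to 0.185). Klf6 was at 1209, 1278 and 1240 in the mutants and 2149, 1593 and 1703 in WT ZT13, and its change of -0.53 did not pass (adjusted p = 0.0886). In WT at ZT5 the levels were near those at ZT13, with Egr1 at 685, 1333 and 736 and Fos at 1525, 2363 and 2255.

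Inflammatory mediators had lower calls and no higher ones. Of 17 tested, 8 were lower, with a median of -0.96. Ptgs2, the inducible cyclooxygenase, was at 33.6, 10.4 and 9.30 in the mutants and 595, 302 and 384 in WT ZT13 (-4.69, SE 0.34, limma adjusted p = 7.25e-10). Cxcl2, a ligand of CXCR2, was at 11.6, 0 and 0 in the mutants and 67.0, 55.4 and 34.6 in WT ZT13 (-4.47, SE 0.90, adjusted p = 0.00238), a call lost with edgeR (adjusted p = 0.0707) and limma-voom (adjusted p = 0.244). Socs3, a feedback inhibitor of cytokine signalling, was at 148, 70.0 and 130 in the mutants, against 692, 911 and 713 in WT ZT13 (-2.78, SE 0.28, adjusted p = 2.7e-07). The groups were separate in each. Il1b, the interleukin itself, was at 1678, 1366 and 1374 in the mutants and 4869, 2879 and 3160 in WT ZT13 (-1.27, SE 0.19, adjusted p = 9.41e-05). Its decoy receptor Il1r2 changed by -1.91 and the cytokine Osm by -1.38. Ccl3 was at 0 in all mutant libraries, and at 11.9, 5.71 and 5.60 in WT ZT13, which is at least 13.1-fold lower when each mutant library is set to 3 reads. Its call was lost whichever of the 6 libraries was left out (adjusted p up to 0.107).

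**Figure D4:**
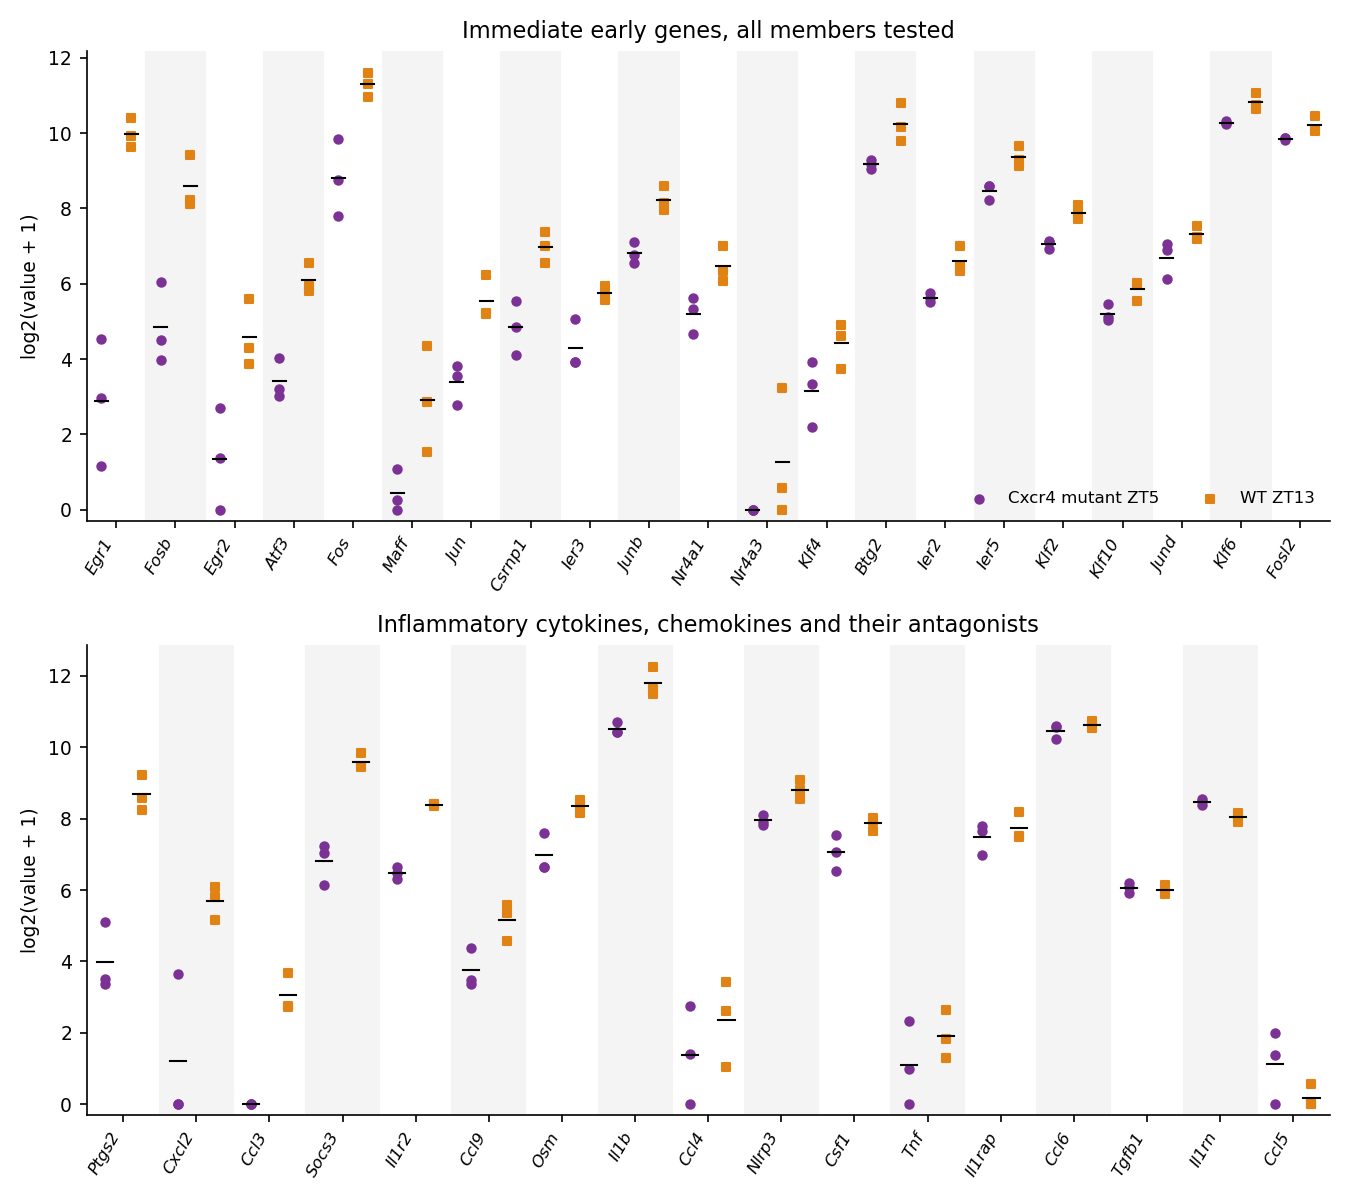
Values on the log2(value + 1) scale (y axis) of all tested immediate early genes (top) and inflammatory mediators (bottom), with Cxcr4 mutants at ZT5 as purple circles left of WT ZT13 as orange squares. Points are libraries and bars group means; genes are ordered by fold change, from Egr1 at -7.10 in the top panel and Ptgs2 at -4.69 in the bottom panel.

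Feedback regulators and survival genes changed by smaller amounts. Of 19 MAP kinase feedback and mRNA decay genes, 5 were lower and 0 higher, a count of 3 without mutant replicate 4. Zfp36, which promotes decay of cytokine mRNAs, was at 542, 342 and 444 in the mutants and 1384, 1195 and 1184 in WT ZT13 (-1.52, SE 0.18, limma adjusted p = 4.08e-06). Dusp1, a MAP kinase phosphatase, was at 1706, 870 and 1247 in the mutants and 3580, 2434 and 2078 in WT ZT13 (-1.10, adjusted p = 0.00481, and 0.067 without mutant replicate 4). Of 20 NF-kB genes, 1 was higher (Cflar, an inhibitor of death receptor signalling, 0.83) and 2 were lower (Birc3, -0.88, and Tnfaip2, -0.79), and 0 were called without WT ZT13 replicate 2 or without mutant replicate 4. Of 24 Bcl2 family and death receptor genes, 1 was higher and 4 lower, and Cflar and Birc3 are counted in both lists. The prosurvival gene Mcl1 was at 3142, 2384 and 2781 in the mutants and 5750, 3732 and 4242 in WT ZT13 (-0.71, SE 0.19, adjusted p = 0.0226), a call lost without WT ZT13 replicate 2 or 9 or mutant replicate 4 or 5 (adjusted p up to 0.152). The proapoptotic Bcl2l11 changed by -1.26 and kept its call whichever library was left out. Without mutant replicate 4 the list held 1 call, and without WT ZT13 replicate 2, WT ZT13 replicate 9 or mutant replicate 5 it held 2, and without mutant replicate 2 it held 3.

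Receptors and adhesion molecules split. Of 17 chemoattractant receptors tested, 2 were higher and 5 lower, Cxcr4 included. S1pr4, a receptor for sphingosine-1-phosphate, was at 99.9, 92.8 and 133 in the mutants and 28.6, 19.2 and 26.6 in WT ZT13 (2.09, SE 0.30, limma adjusted p = 4.91e-05). Ccr1, a receptor for inflammatory CC chemokines, was at 404, 361 and 458 in the mutants, against 875, 759 and 850 in WT ZT13 (-1.02, SE 0.19, adjusted p = 0.00115). Cxcr1, a receptor related to Cxcr2, was at 2.40, 0 and 0 in the mutants and 16.1, 10.1 and 16.1 in WT ZT13 (-3.30, SE 0.76, adjusted p = 0.00791). The mutant and WT ZT13 groups were separate for all 3. WT ZT5 libraries, at 63.2, 41.6 and 67.4 for S1pr4, lay between the mutants and WT ZT13. Those for Ccr1, at 335, 598 and 573, overlapped the mutants. The complement receptor C5ar1 and the platelet-activating factor receptor Ptafr had changes of 0.02 and 0.13 and were not called.

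Of 22 adhesion and homing receptors, 4 were higher and 3 lower, and 4 in all were called without WT ZT13 replicate 8. Cd24a, a mucin-type surface protein of immature neutrophils, was at 1967, 2531 and 1881 in the mutants and 959, 815 and 598 in WT ZT13 (1.44, SE 0.21, limma adjusted p = 4.27e-05). Spn, the sialomucin CD43, was at 130, 241 and 227 in the mutants and 36.8, 63.0 and 66.0 in WT ZT13 (1.83, SE 0.30, adjusted p = 0.000276), and WT ZT5 libraries, at 198, 106 and 229, overlapped the mutants. Itgam, the alpha chain of Mac-1, was at 2493, 2751 and 2394 in the mutants, against 1723, 1268 and 1267 in WT ZT13 (0.86, SE 0.19, adjusted p = 0.00548). The mutant libraries lay above the WT ZT13 libraries for each. Pecam1 changed by -2.09, lost without WT ZT13 replicate 8 or 9 or mutant replicate 2 or 5 (adjusted p up to 0.112), and Emb by -0.72, lost without WT ZT13 replicate 2 or 8 or mutant replicate 2 or 4 (adjusted p up to 0.0643). Of 30 actin and motility genes, 4 were higher, Ahnak (2.22), Vim (1.08), Flna (1.04) and Arpc5 (0.72), and 29 of the 30 estimates were positive. Ahnak was at 917, 1305 and 1124 in the mutants, and WT ZT5 libraries, at 1091, 372 and 629, overlapped them. Arpc5 lost its call without WT ZT13 replicate 9 or mutant replicate 4 or 5 (adjusted p up to 0.0734), and a fit of the 6 libraries alone called 9 of the list.

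Cholesterol genes changed in both directions. Of 20 tested, 2 were higher and 4 lower, and 3 in all were called without mutant replicate 5. Abca1, the exporter that loads cholesterol onto apolipoproteins, was at 0, 4.27 and 0.372 in the mutants and 49.2, 81.8 and 83.1 in WT ZT13 (-5.19, SE 0.55, limma adjusted p = 5.18e-07). Apoe, an apolipoprotein, was at 6.99, 2.03 and 5.77 in the mutants, against 66.0, 67.2 and 81.4 in WT ZT13 (-3.72, SE 0.34, adjusted p = 4.1e-08). Both were separate without overlap. Mylip, a ubiquitin ligase of lipid metabolism, changed by -1.19 and the exporter Abcg1 by -1.12, a call lost without WT ZT13 replicate 8 or 9 or mutant replicate 2 or 5 (adjusted p up to 0.108). Srebf2, the transcription factor of cholesterol synthesis, changed by 1.74 and lost its call without mutant replicate 5 (adjusted p = 0.064). It was at 55.5, 69.0 and 80.0 in the mutants, and WT ZT5 libraries, at 69.1, 24.5 and 49.6, overlapped them.

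Pentose phosphate and redox genes were called in 7 of 25, with 5 higher and 2 lower. Tkt, the transketolase, was at 321, 527 and 432 in the mutants and 200, 99.4 and 152 in WT ZT13 (1.52, SE 0.23, limma adjusted p = 9.46e-05). G6pdx, which makes the NADPH that the oxidase consumes, was at 411, 397 and 421 in the mutants and 219, 174 and 170 in WT ZT13 (1.13, SE 0.23, adjusted p = 0.00219). The groups did not overlap in either. The cystine transporter Slc7a11 changed by 1.06 and the peroxiredoxin Prdx5 by 1.30. Cat, the catalase that red cells also contain in quantity, was at 6.19, 12.6 and 1.67 in the mutants and 24.6, 57.1 and 40.7 in WT ZT13 (-2.63, SE 0.51, adjusted p = 0.00173). Of 24 glycolysis and hypoxia genes, 2 were lower, the glucose carrier Slc2a1 (-1.41) and the lactate carrier Slc16a3 (-0.98), and 4 without WT ZT13 replicate 2.

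Clock and glucocorticoid genes bear on the difference in clock time, and WT ZT5 values stand beside them for that reason. WT ZT5 shares the clock time of the mutants, and its contrasts with them and with WT ZT13 add up to the main comparison and share its libraries. By the same limma model, 923 genes (8.2%) were called between the mutants and WT ZT5, and 9 (0.08%) between WT ZT5 and WT ZT13. Markers of other cells moved with the contrast to WT ZT5. The summed value of 19 B cell markers was 151 to 269 in the mutants and 576 to 4768 in WT ZT5, with a median log2 change of -3.47. That of 21 monocyte and macrophage markers was 1046 to 1193 in the mutants and 1713 to 2886 in WT ZT5, with a median of -2.41. WT ZT5 replicate 5 stood apart, as in Cd79a, a component of the B cell receptor, at 12.6, 26.6 and 8.93 in the mutants and 368, 23.2 and 72.1 in WT ZT5. Without that library, an alternative chosen after seeing the data, 627 genes were called between the mutants and WT ZT5, of which 528 were among the 923, and 4 between WT ZT5 and WT ZT13, of which 3 were among the 9. The part of these markers in the calls against WT ZT5 was not tested further. Of 15 clock genes tested in the main comparison, 1 was higher and 2 lower. Per2, a repressor in the clock's feedback loop, was at 183, 247 and 204 in the mutants, 24.3, 44.3 and 31.5 in WT ZT5, and 58.7, 43.1 and 29.7 in WT ZT13. The mutants were above both WT groups, which overlapped. The change was 2.28 against WT ZT13 (SE 0.42, adjusted p = 0.000926) and 2.66 against WT ZT5 (adjusted p = 0.00013). Per1, its paralog, was at 92.5, 54.5 and 87.6 in the mutants, 196, 198 and 166 in WT ZT5, and 310, 202 and 240 in WT ZT13. Here the mutants were below both, by -1.68 against WT ZT13 (SE 0.23, adjusted p = 1.65e-05) and -1.28 against WT ZT5 (adjusted p = 0.00048). Csnk1d, a kinase of the PER proteins, changed by -0.81 against WT ZT13, a call lost without mutant replicate 5 (adjusted p = 0.053). Dbp, an output gene of the clock, was under 10 in all mutant and WT ZT13 libraries and was not called.

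The Per1 promoter is shown for the E-box, the element at which the CLOCK and BMAL1 proteins act. The 250 bases before its RefSeq start (chr11:69098699-69098948, plus strand, GRCm38.p6) are given 5′ to 3′, with the match to CACGTG in capitals.
Per1: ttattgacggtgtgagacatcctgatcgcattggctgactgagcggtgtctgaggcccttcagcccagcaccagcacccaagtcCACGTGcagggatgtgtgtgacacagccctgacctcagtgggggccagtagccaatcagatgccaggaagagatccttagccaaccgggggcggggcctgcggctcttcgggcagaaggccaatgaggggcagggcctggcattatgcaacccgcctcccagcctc
The match begins 166 bases before the start. CACGTG was found in 3 of 40 named higher genes (7.5%) and 5 of 43 named lower genes (11.6%), against 7.15% of all promoters.

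Of 16 glucocorticoid receptor and induced genes, 2 were higher, Lcn2 and Anxa1, and 4 lower. Fkbp5, a chaperone of the glucocorticoid receptor, was at 39.9, 28.1 and 36.1 in the mutants, 33.8, 25.8 and 48.2 in WT ZT5, and 189, 87.9 and 250 in WT ZT13. The mutants overlapped WT ZT5 and were below WT ZT13, with changes of -2.19 against WT ZT13 (SE 0.34, limma adjusted p = 0.000106), -0.02 against WT ZT5 (adjusted p = 0.99) and -2.18 for WT ZT5 against WT ZT13 (adjusted p = 0.0038). Il1r2 was at 98.5, 88.9 and 78.0 in the mutants, 94.7, 153 and 117 in WT ZT5, and 325, 338 and 337 in WT ZT13. Crispld2, a secreted protein induced by glucocorticoids, was at 206, 206 and 267 in the mutants, 23.5, 77.5 and 31.9 in WT ZT5, and 162, 444 and 338 in WT ZT13. It thus did not pass against WT ZT13 (-0.36, adjusted p = 0.684), while the mutants were above WT ZT5 by 2.50 (adjusted p = 3.9e-05). Tsc22d3, known as GILZ, changed by 0.23 and was not called.

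**Figure D5:**
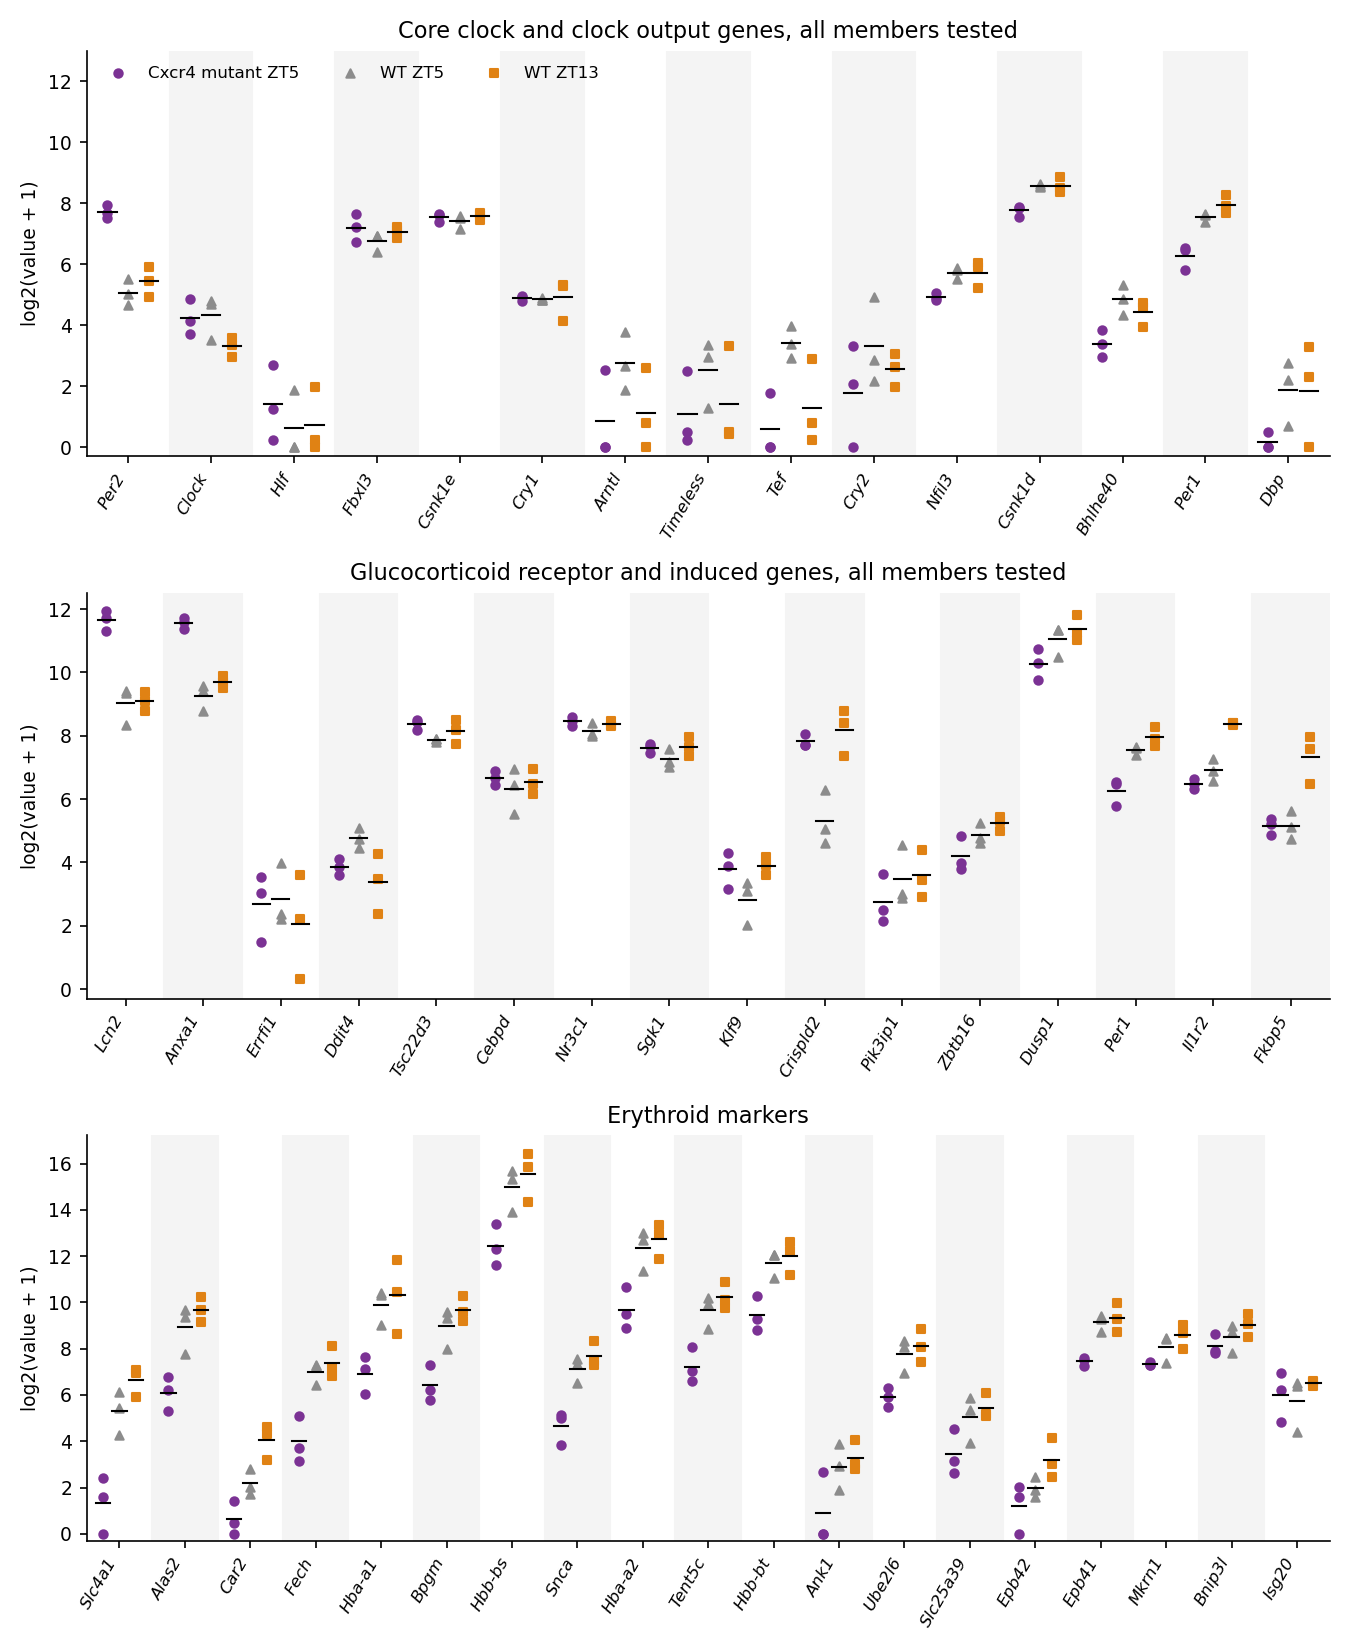
Values on the log2(value + 1) scale (y axis) of all tested clock genes (top) and glucocorticoid genes (middle) and of 19 of the 20 tested erythroid markers (bottom), for Cxcr4 mutants at ZT5 (purple circles), WT ZT5 (grey triangles) and WT ZT13 (orange squares), left to right within each gene. Points are libraries and bars group means; Per2 is highest in the mutants, Fkbp5 highest in WT ZT13, and the erythroid markers are lower in the mutants than in WT ZT13 on average.

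Red cell markers had the highest share of calls among the lists of other cell types, 85%. Of 20 erythroid markers tested, 17 were lower and 0 higher, with a median of -3.02. Their summed value was 4953 to 15107 in the mutants, 22889 to 70676 in WT ZT5 and 30743 to 115274 in WT ZT13. Slc4a1, the anion exchanger of the red cell membrane, was at 0, 4.27 and 2.05 in the mutants and 123, 133 and 58.7 in WT ZT13 (-5.30, SE 0.52, limma adjusted p = 1.87e-07). Alas2, the enzyme that opens heme synthesis in red cells, was at 38.6, 107 and 72.6 in the mutants, against 562, 1198 and 823 in WT ZT13 (-3.60, SE 0.36, adjusted p = 2.68e-07). Every mutant library was below every WT ZT13 library in both. The beta-globin gene Hbb-bs changed by -3.10, and Hba-a1 and Hba-a2, near-identical alpha-globin genes whose reads can be split between them, by -3.38 and -3.05. Red cell RNA thus moved with the same contrast as the neutrophil genes above, and its part in their values was not tested.

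Other cell types left smaller traces. Summed B cell markers were 151 to 269 in the mutants and 159 to 526 in WT ZT13. Their median log2 fold change was -1.14, with 16 estimates negative and 3 positive, and 1 of 19, H2-Eb1, was called lower. That call was lost on leaving out any library except WT ZT13 replicate 2, and without this library 3 were called. Of 19 platelet markers, 0 were called by the main limma fit, 1 by edgeR and 6 by DESeq2, and 7 had an unadjusted p under 0.05. Limma with array weights called 2, and a limma fit without WT ZT5 called 1. Of the 19 estimates 18 were negative, and the sums were 474 to 617 in the mutants and 269 to 1952 in WT ZT13. WT ZT13 replicate 2 had the low sum, and without it 10 platelet markers were called, against 1 without mutant replicate 2. Pf4, platelet factor 4, was at 3.60, 0.407 and 0.186 in the mutants and 1.40, 46.7 and 35.6 in WT ZT13. Summed monocyte and macrophage markers were 1046 to 1193 in the mutants and 892 to 1437 in WT ZT13. Ly6c2 gave 265 to 320 of the mutant sums and 37.4 to 64.8 of the WT ZT13 sums. The median log2 fold change of the list was -1.04, with 16 estimates negative and 5 positive. Of 21, 3 were higher (Ly6c2, 2.39, Lgals3, 2.13, and Spn) and 3 lower (Ccr2, -2.50, Clec4a3, -2.33, and Nr4a1), a count of 3 in all without WT ZT13 replicate 9 or mutant replicate 4. Ccr2, which defines classical monocytes, was at 6.99, 6.51 and 2.98 in the mutants, against 9.08, 80.5 and 51.2 in WT ZT13, and lost its call on leaving out any library except WT ZT13 replicate 2 (adjusted p up to 0.243). Clec4a3 lost its call on leaving out any WT ZT13 library or mutant replicate 4 (adjusted p up to 0.308). Of 10 T and NK cell markers, 0 were called by limma, edgeR or DESeq2, and 0 had an unadjusted p under 0.05. Of 6 markers of eosinophils, basophils and mast cells, 0 were called by the main limma fit and 1 by DESeq2. Limma with array weights called 1 of the 6, and 3 had an unadjusted p under 0.05 in the main fit. The part of these cells in the results was not tested.

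Interferon-stimulated genes stayed close to the background. Of 35 tested, 2 were higher (5.71%) and 0 lower. Cmpk2, a mitochondrial nucleotide kinase, was at 305, 258 and 360 in the mutants and 133, 102 and 124 in WT ZT13 (1.35, SE 0.26, limma adjusted p = 0.00164). Mutant replicate 4 was lower than the other mutants for Ifit3, at 232, 40.9 and 179 in the mutants against 33.2, 52.2 and 54.8 in WT ZT13, and without that library 7 of the list were called. Ifitm3 changed by 0.86, a call lost without mutant replicate 5 (adjusted p = 0.0615), which left 1 call in the list. Among myeloid transcription factors, 1 of 26 was called, Klf5, and the count ran from 0 with edgeR to 4 in a fit of the 6 libraries alone, with 2 by DESeq2 and 2 without WT ZT13 replicate 2. Cebpe, the factor required for specific granule formation, was at 27.4, 38.2 and 52.5 in the mutants and 5.94, 12.5 and 8.77 in WT ZT13. Its groups did not overlap, but the change of 2.01 (SE 0.72) did not pass (adjusted p = 0.124).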

How the data were processed

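Polyadenylated RNA of sorted blood neutrophils was amplified with the Ovation Single Cell kit, per the labels. The submitters' processing notes name CASAVA 1.8.2, cutadapt, RSEM 1.2.3 and GRCm38. No source used here gives the normalization method. The deposited table, made by the authors, holds normalized signal for 11288 genes in 14 libraries. In every column all values (100%) were whole multiples of a constant of 0.127 to 0.244, with a tolerance of 1e-06 reads, and dividing by it recovered the reads. Strand is not stated, so antisense partners cannot be told apart. Symbols and coordinates came from GENCODE M21 (11194 genes).

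All 14 libraries entered 1 limma 3.58.1 model (R 4.3.3) of log2(value + 1) with an intensity trend and 5 group means. The contrast used the 3 mutant ZT5 and 3 WT ZT13 libraries, and the other 8 entered only the estimate of the spread. The test took genes averaging 1 or more, 11255 in all, and Benjamini-Hochberg adjustment ran over these. Fold changes are on the log2(value + 1) scale, which understates those of low genes. The model was tested on simulated reads with known changes. It called 14% of 100 genes changed by 1 on the log2 scale and 64% of 100 changed by 2. Of the unchanged genes, 8 were called, beside 14 and 64 of the changed ones, with 11041 genes tested in all. The changed genes were drawn from those averaging 10 or more, so recovery of lower genes was not tested. A gene that was not called may therefore still differ, and some of the called genes may be false calls. Floors of 3 reads cover counting error only, since PCR reads without molecular identifiers are not independent molecules.

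Members and lists were chosen with earlier results of these data known. The rule for named genes took the 15 largest changes in each direction among called genes whose groups were separate and whose log2 values averaged 3 or more, leaving out predicted genes and pseudogenes. It added Cxcr4, Cxcr2 and Arntl, and for each list the 4 genes with the smallest p. Further list members were chosen after their values were seen. Promoters came from RefSeq. Alternatives included edgeR 4.0.16 and DESeq2 1.42.0 on recovered reads. Some genes are not reported here.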

Additional observations from a re-analysis of the deposited data

How the results depend on the processing

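The total of 589 called genes (296 higher, 293 lower) stayed within 1.5 times of itself with a pseudocount of 0.1, other filters, other scalings, array weights, a fit of the 6 or of 11 libraries, edgeR with TMM (443) and DESeq2 (771). It moved with a required fold change of at least 1.5, to 153 genes (87 higher, 66 lower). With limma-voom the lower calls moved to 192. Leaving out 1 library gave 369 to 530 calls (175 to 250 higher, 174 to 280 lower). Of 106 named called genes, 53 kept their call in all 19 alternatives, another 19 lost it only with the required fold change, and 0 changed sign. Among named genes, signs turned only for uncalled Arntl (0.45 without WT ZT13 replicate 8, 0.14 without mutant replicate 2 or 4; lowest -1.13 without mutant replicate 5) and mt-Cytb (0.10 without mutant replicate 2; lowest -0.76 without mutant replicate 4). With the required fold change, 7 immediate early genes were called, against 14, and 4 inflammatory genes, against 8. No paired analysis was possible because the 2 groups share only replicate number 2. The depth of 4082276 to 5594088 reads per library limits genes of low value. The causes were not tested.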

Other observations

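The lists of phagocytic receptors and of lysosome genes had lower calls and 0 higher ones. Of 20 Fc receptors, phagocytic receptors and their adaptors, 5 were lower, Trem1, described above, included. Clec7a, the beta-glucan receptor dectin-1, was at 641, 539 and 630 in the mutants and 1816, 1201 and 994 in WT ZT13 (-1.10, SE 0.22, limma adjusted p = 0.00221). Syk, the kinase downstream of such receptors, changed by -0.63 and lost its call without WT ZT13 replicate 8 or 9 or mutant replicate 4 (adjusted p up to 0.158). The list held 2 calls on leaving out any of these and 3 without mutant replicate 2. Of 24 autophagy and lysosome genes 3 were lower, Ctsa (-1.28), Ctsz (-1.11) and Atg3 (-0.64), and 0 were called without WT ZT13 replicate 9 or mutant replicate 4, and 1 without WT ZT13 replicate 8 or mutant replicate 5. Fth1, the ferritin heavy chain, is in neither list. It was at 878, 1042 and 947 in the mutants and 1354, 1955 and 1904 in WT ZT13 (-0.85, SE 0.18, limma adjusted p = 0.00387).

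Rn7sk, a nuclear RNA made by RNA polymerase III, was at 11.8, 103 and 1321 in the mutants and at 0 in all WT ZT13 libraries, while WT ZT5 libraries had 333, 308 and 59.5. The mutant mean, which replicate 5 dominates, was at least 760-fold higher when each WT ZT13 library is set to 3 reads. This bound does not hold for each mutant library. The log2 fold change was 6.91 (SE 1.37, limma adjusted p = 0.0020), and 5.19 to 8.53 on leaving out 1 library. Within 20 Mb of Cxcr4, 8 of 106 other tested genes were called (7.55%), against 5.23% of all genes.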
